A study of Saccharomyces cerevisiae with 4 samples.

Results

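The genes described here are 6 B-type cyclin genes and 3 genes of mitotic control of the budding yeast Saccharomyces cerevisiae. The cyclin genes are CLB1 to CLB6, and the others encode the polo kinase (CDC5), an activator of the anaphase-promoting complex (CDC20) and a mitotic transcription factor (SWI5). They were chosen by name, as the yeast probes that carry one of 9 listed reading frames, and make up 9 of 6144 genes tested. All 9 were found by reading frame name, with 1 probe each, spotted in duplicate on every array. The cells came from a strain labelled BY4741, a haploid laboratory background, and both groups carried an estradiol-inducible gene for Msn2A6, a form of the stress transcription factor Msn2 that protein kinase A does not restrain. The Msn2A6_90min group (2 arrays) was harvested 90 min after 6 nM 17β-estradiol was added. The Msn2A6_0min group (2 arrays) was the same kind of culture without estradiol. Cultures of 50 ml grew at 30 °C in YPD, which is rich in glucose, and an Agilent yeast array read the total RNA of each in 1 colour. No untreated culture at 90 min was analysed here, so estradiol, Msn2A6 and 90 min of further growth cannot be told apart.

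B-type cyclins bind and direct the cyclin-dependent kinase Cdc28 through S phase and mitosis. CLB5 and CLB6 are transcribed in late G1 and drive DNA replication, CLB3 and CLB4 follow and act in spindle formation, and CLB1 and CLB2 come last and drive mitosis. A burst of transcription at the G2 to M transition, through Mcm1, Fkh2 and Ndd1, produces CLB1 and CLB2 together with CDC5, CDC20 and SWI5. Cdc20 then directs the anaphase-promoting complex to destroy mitotic cyclins, and Swi5 enters the nucleus at the end of mitosis to start the genes of the following G1.

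The induced gene was checked first. The MSN2 probe gave 3.78% and 3.24% of the 75th percentile of the array at 90 min, against 0.650% and 0.611% at 0 min, a log2 change of 2.47 ± 0.09 (SE, adjusted p = 1.34e-06, limma). Without probe sequences, it was not tested whether this probe reads the induced allele, the chromosomal gene or both. Of 6256 yeast probes, 6151 to 6191 stood well above background on an array, and no yeast spot was saturated. Replicate arrays of a group differed by a median of 0.070 log2 units at 90 min and 0.066 at 0 min. With 2 arrays in each group, their number limits the precision.

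The comparison asks how transcripts of the B-type cyclins and mitotic regulators differed 90 min after Msn2A6 induction. All 9 were lower at 90 min, by 1.30-fold for CLB3 to 2.52-fold for CLB6, and both 90 min arrays lay below both 0 min arrays for each gene. The falls were at least 2-fold for 3 of the 9, CLB6, CLB2 and CLB1, and CDC5 fell 1.92-fold. A lower call was common in this experiment: 46.2% of all genes tested were called lower (limma, adjusted p under 0.05), so 9 of 9 calls has to be read against that share. Both 90 min arrays lay below both 0 min arrays for 52.9% of all genes. A fall of at least 2-fold was rarer, at 3.87% of all genes. The median log2 change was -0.75 over the 9 genes and -0.13 over all genes. Since whole cultures were measured, a smaller share of cells in a stage of the cycle and less transcript per cell cannot be told apart.

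All values below are signals in percent of the 75th percentile of the yeast spots on the same array, so a level can be compared between arrays for 1 gene but not between genes. Changes are log2 differences, 90 min minus 0 min, with the SE and adjusted p of limma over all probes tested. The duplicate spots show the error within an array. Over the 9 genes, duplicate spots of 1 array differed by a median of 0.096 and at most 0.28 log2 units. For every gene all 4 spots at 90 min were below all 4 spots at 0 min. Duplicate spots are not replicates, and the share of all genes with spots apart in this way was not counted. By arrays, 52.9% of all genes were apart in this direction. All 72 spots of these genes were well above background, and none was left out or saturated. The dimmest had an intensity of 289, against local backgrounds of 18 to 25.

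**Figure D1:**
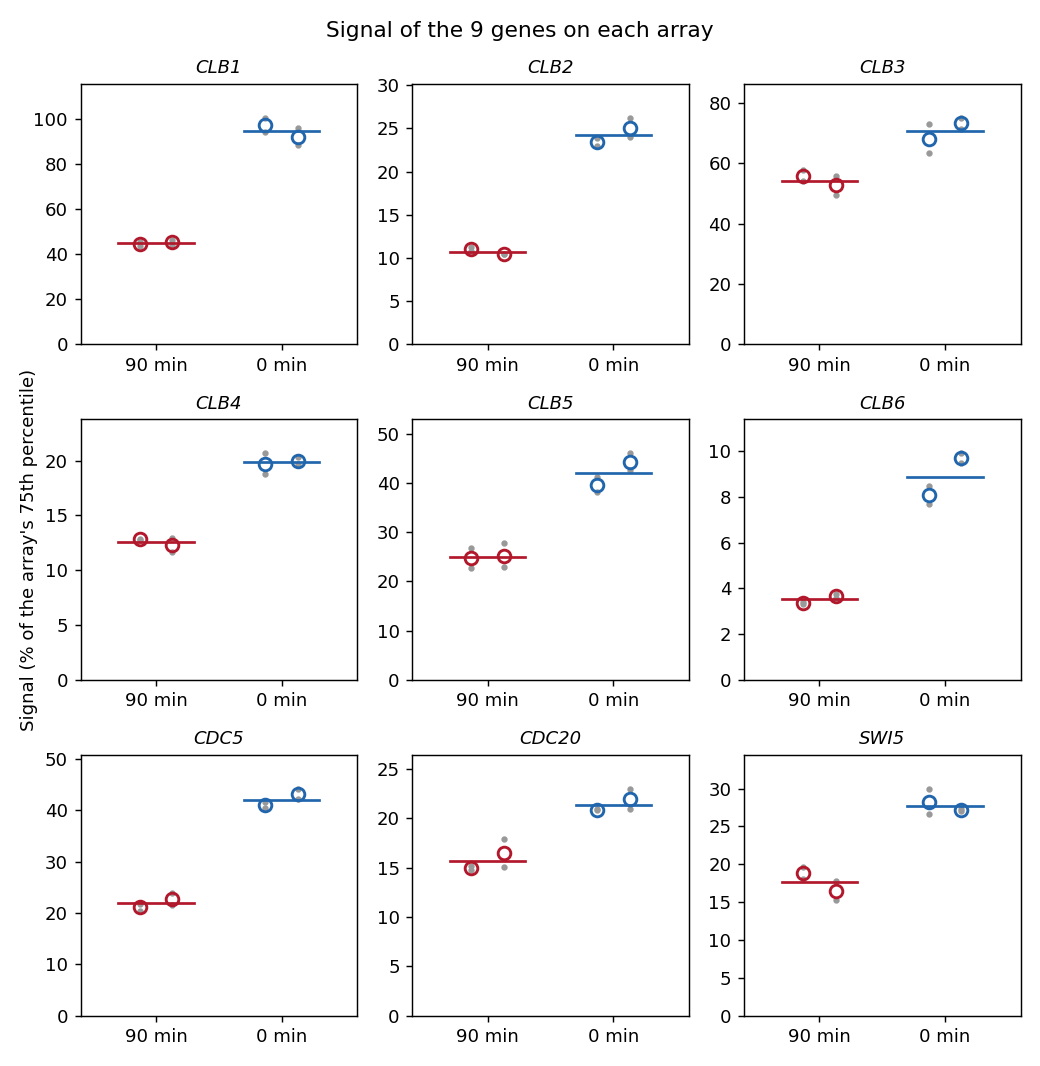
Signal of each of the 9 genes on each array, in percent of the 75th percentile of that array's yeast spots, with the 2 arrays at 90 min (red) left of the 2 at 0 min (blue). Open circles are arrays, grey points their duplicate spots and lines the group means; each vertical axis starts at 0 and has its own scale, and the red circles lie below the blue ones in all 9 panels.

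Of the S-phase cyclins, CLB6 (YGR109C) had the lowest change of the 9 genes. Its signal was 3.37% and 3.67% at 90 min, against 8.08% and 9.70% at 0 min. The 90 min arrays were close together and the 0 min arrays further apart (SD 0.09 and 0.19 log2 units), with no overlap. CLB6 fell 2.52-fold, a log2 change of -1.33 ± 0.10 (adjusted p = 3.28e-05), which placed it 96th from the lowest of all genes. CLB6 was also the dimmest probe of the 9, and its change was smaller, at -1.12, after a normexp background correction.

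CLB5 (YPR120C), whose cyclin is the main one for timely DNA replication, gave 24.7% and 25.3% at 90 min, against 39.7% and 44.4% at 0 min. The groups were separate, and the spread was smaller at 90 min (SD 0.02 log2 units) than at 0 min (SD 0.11). CLB5 fell 1.68-fold, a log2 change of -0.75 ± 0.07 (adjusted p = 0.000107). The 2 S-phase cyclins did not change equally: the fall of CLB6 exceeded that of CLB5 by 0.58 on the log2 scale, and the CLB6 to CLB5 log ratio of both 90 min arrays lay below that of both 0 min arrays. An exact two-sided permutation test of 2 arrays against 2 cannot go below p = 0.333, so these differences between genes are given without a test.

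The mitotic cyclins CLB1 and CLB2 changed by nearly the same amount. CLB2 (YPR119W), the main mitotic cyclin gene, had 11.0% and 10.4% at 90 min, against 23.4% and 25.1% at 0 min. The lowest 0 min array was 12.4 percentage points above the highest 90 min array. Its log2 change was -1.18 ± 0.07 (2.26-fold lower, adjusted p = 9.51e-06). CLB1 (YGR108W), its close relative, had 44.5% and 45.4% at 90 min, against 97.4% and 92.3% at 0 min. The 2 arrays at 90 min nearly coincided (SD 0.02 log2 units), and the lowest 0 min array was 46.9 percentage points above them. Its log2 change was -1.08 ± 0.06 (2.11-fold lower, adjusted p = 8.58e-06). The CLB1 and CLB2 changes differed by 0.10, and the log ratio of the 2 genes overlapped between the groups. Probe sequences were not used here, so it was not tested whether the probe of one gene also reads its relative.

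CLB3 and CLB4, the cyclin genes of S phase and early mitosis, fell less. CLB4 (YLR210W) had 12.8% and 12.3% at 90 min, against 19.7% and 20.0% at 0 min. Both pairs of arrays were tight, and the log2 change was -0.66 ± 0.06 (1.58-fold lower, adjusted p = 6.96e-05). CLB3 (YDL155W) had 55.9% and 52.7% at 90 min, against 68.1% and 73.3% at 0 min. Its groups were also separate, but the log2 change of -0.38 ± 0.07 was the smallest of the 9 (1.30-fold lower, adjusted p = 0.0018). The CLB3 change lay at the 28.0th percentile of all gene changes, where falls of this size are common. The fall of CLB4 exceeded that of CLB3 by 0.28, and their log ratio did not overlap between the groups.

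Among the other regulators, CDC5 (YMR001C) fell most. The polo kinase it encodes acts in mitotic entry, cohesin removal and mitotic exit. CDC5 had 21.1% and 22.7% at 90 min, against 41.0% and 43.1% at 0 min. The highest 90 min array was 18.3 percentage points below the lowest 0 min array. Its log2 change was -0.94 ± 0.07 (1.92-fold lower, adjusted p = 2.57e-05).

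SWI5 (YDR146C) had 18.8% and 16.5% at 90 min, against 28.2% and 27.2% at 0 min. Its 90 min arrays were the most spread of the 9 genes (SD 0.13 log2 units), without reaching the 0 min values. The log2 change was -0.65 ± 0.08 (1.57-fold lower, adjusted p = 0.000296). CDC20 (YGL116W) had 15.0% and 16.5% at 90 min, against 20.9% and 21.9% at 0 min. The lowest 0 min array was 4.43 percentage points above the highest 90 min array. Its log2 change of -0.45 ± 0.07 was close to that of CLB3 (1.36-fold lower, adjusted p = 0.00105) and lay at the 22.8th percentile of all changes.

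In order from the largest fall, the genes were CLB6, CLB2, CLB1, CDC5, CLB5, CLB4, SWI5, CDC20 and CLB3. The 95% intervals of all 8 pairs of neighbours in this order overlapped. Of all 36 pairs, 19 had intervals that did not overlap, among them CLB6, with an interval of -1.56 to -1.10, and CLB3, with -0.54 to -0.22. CLB6, CLB2, CLB1 and CDC5 were in the lowest 5% of changes of all genes, and 8 of the 9 genes, all but CLB3, were in the lowest 25%. Timing in the cycle did not sort the genes in this order: the S-phase cyclin CLB6 and the mitotic cyclin CLB2 had the largest falls, and the S-phase cyclin CLB5 stood between CDC5 and CLB4.

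**Figure D2:**
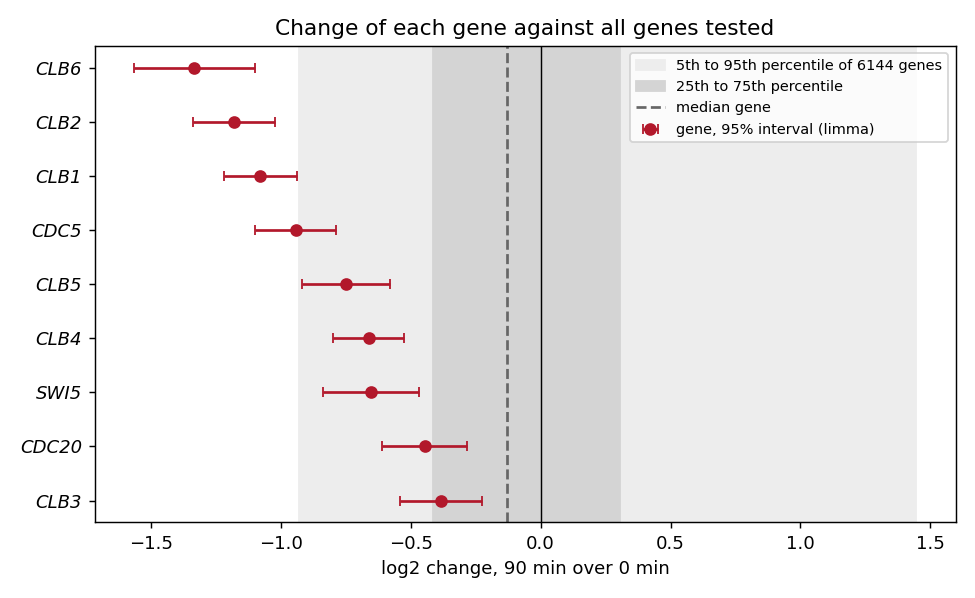
Log2 change (90 min over 0 min) of each of the 9 genes with its 95% interval from limma, ordered from the largest fall at the top. Shaded bands hold the middle 90% and 50% of the changes of 6144 genes and the dashed line is their median of -0.13; CLB6, CLB2, CLB1 and CDC5 lie outside the wider band, CDC20 lies at the edge of the narrower one and CLB3 inside it.

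4 of the cyclin genes are chromosomal neighbours in pairs, by gene order in the RefSeq R64 table. CLB1 lies next to CLB6, and CLB2 next to CLB5, so each pair joins a mitotic and an S-phase cyclin. Neighbours did not change alike in both pairs. The fall of CLB6 exceeded that of CLB1 by 0.25, and the fall of CLB2 exceeded that of CLB5 by 0.43, and in both pairs the log ratio did not overlap between the groups.

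The 9 genes were lower with median, quantile, spike-in or no scaling, but by different amounts. Scaling on the spike-in control probes shifted every gene by a further -0.45 on the log2 scale, and no scaling by -0.19. Those scalings do not alter the position of a gene among the others. With spike-in scaling 7 of the 9 genes were at least 2-fold lower, beside 16.6% of all genes, and with no scaling 4 of the 9, beside 6.97%. With spike-in scaling the changes were -1.78 for CLB6, -1.63 for CLB2 and -0.83 for CLB3. The log2 signal of the spike-in probes, on the scale of the 75th percentile, was 0.0045 and -0.041 at 90 min, against -0.59 and -0.35 at 0 min. The replicates at 0 min were thus themselves apart. With spike-in scaling the SE was 0.16 for each of the 9 genes. Adjusted p values under that scaling therefore do not measure the spread of single genes.

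**Figure D3:**
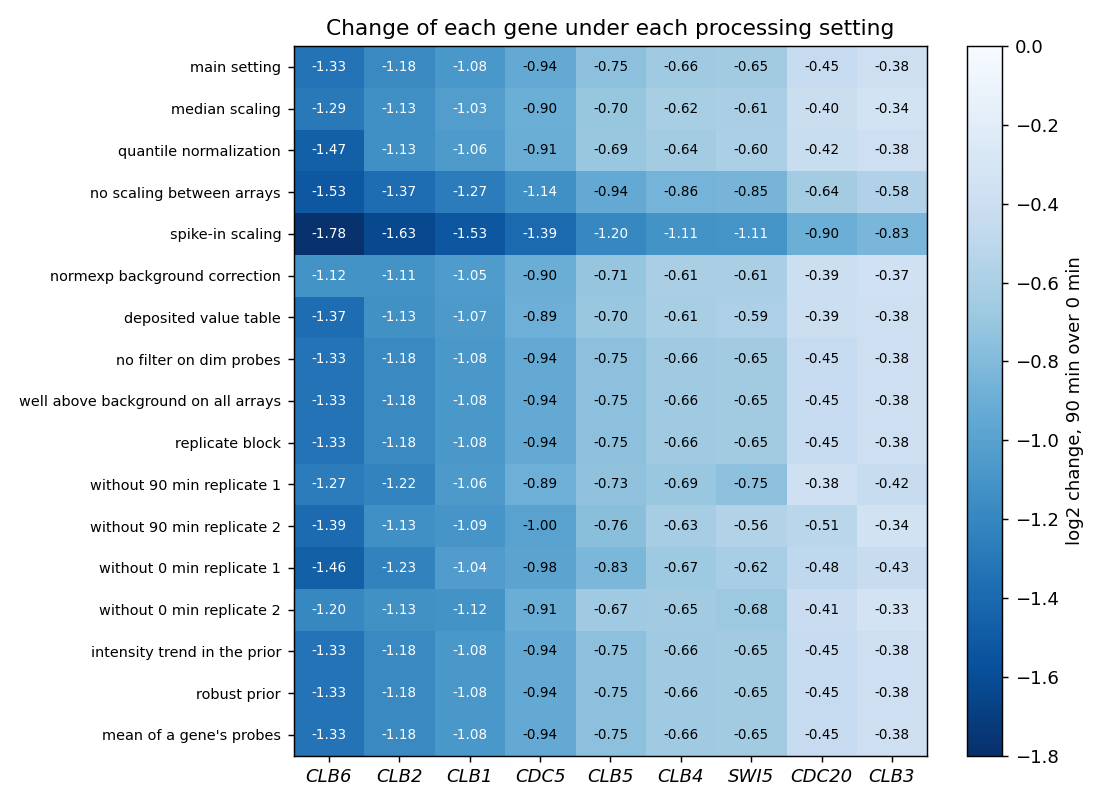
Log2 change (90 min over 0 min) of each gene, in columns, under the main setting and 16 other ways of processing the arrays, in rows; darker blue is a larger fall. All values are below 0, from -1.78 for CLB6 with spike-in scaling to -0.33 for CLB3 without replicate 2 at 0 min. Rows for the filters, the replicate block, the trended and robust priors and the probe mean repeat the values of the main setting.

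Genes that act around the 9 were then described by lists. The lists are given by counts and medians, to be read beside 46.2% of all genes called lower, 30.3% called higher and the median of -0.13. With no scaling, 3532 of 6144 genes were called lower and 1288 higher, at a median of -0.32. With spike-in scaling these values were 4090, 745 and -0.58. The kinase subunit gene CDC28, the partner of all 6 cyclins, had lower signal on both 90 min arrays than on both 0 min arrays. Its log2 change was -0.41 ± 0.07 (adjusted p = 0.00163). Of 12 genes for Cdc28 and its direct modifiers, 8 were called lower and 4 higher, with a median of -0.54. The G1 cyclin genes CLN2 and CLN1 changed by -1.37 and -1.08, and FAR1, an inhibitor of G1 cyclin kinase in the pheromone response, changed by -0.85.

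Both enzymes that set the inhibitory phosphate on Cdc28 changed. MIH1, the phosphatase that removes it, had 43.4% and 42.9% at 90 min, against 20.3% and 20.7% at 0 min. MIH1 rose 2.10-fold (1.07 ± 0.05), and SWE1, the kinase that adds it, fell by 0.69 ± 0.06. SIC1, the inhibitor of B-type cyclin kinase, had 248% and 247% at 90 min, against 151% and 153% at 0 min. Its change of 0.70 ± 0.05 passed, but was 0.25 with spike-in scaling (adjusted p = 0.136). The other genes of this list called higher were CAK1, the activating kinase, at 0.57 and CLN3, a G1 cyclin, at 0.25. With spike-in scaling they were at 0.11 and -0.20 and no longer passed, and the CLN3 call was also lost without replicate 2 at 0 min. SIC1, CAK1, CLN3, CDC28 and SWE1 were picked after their values were seen.

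Regulators of cyclin transcription were mostly lower, with 8 of 11 called lower, 1 higher and a median of -0.50. The largest falls were those of repressors. NRM1, a corepressor of late G1 genes such as CLB5 and CLB6, had 12.1% and 13.1% at 90 min, against 31.9% and 35.4% at 0 min, a change of -1.42 ± 0.08. YOX1 and YHP1, homeodomain repressors of Mcm1 targets, fell by 1.40 and 1.29. Of the activators of the G2 to M burst, FKH2 (-0.50 ± 0.05) and NDD1 (-0.58 ± 0.07) fell and MCM1 (0.12 ± 0.06) did not pass. MCM1 passed as higher with median scaling or normexp, and as lower with spike-in scaling, where it was at -0.33. The 1 gene called higher was XBP1, a stress-induced repressor that is known to act on G1 cyclin genes and CLB2. XBP1 had 98.6% and 103% at 90 min, against 35.5% and 34.4% at 0 min, and rose 2.88-fold. FKH2, NDD1 and MCM1 were picked after their values were seen.

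Other genes of the CLB2 cluster, which are transcribed in the same window as CLB1, CLB2, CDC5 and SWI5, were lower in 14 of 15 cases. Their median was -0.64, and the largest fall was 1.91-fold. With median scaling 13 of the 15 were called lower. MYO1, the myosin of the cytokinetic ring, changed by -0.93 ± 0.10, IRC8 by -0.90 ± 0.10, BUD4, a bud site protein, by -0.87 ± 0.07 and ALK1, a haspin-like kinase, by -0.80 ± 0.05. SPO12, a regulator of mitotic exit, was called higher at 0.33 ± 0.07. With spike-in scaling that change was -0.13, and with no scaling 0.13, and it passed in neither.

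Of 13 genes transcribed from the end of mitosis into G1 in cell separation and G1 control, among them known targets of Swi5, 12 were lower. The median of the 13 was -1.22, and 10 were at least 2-fold lower, beside 3.87% of all genes. That count was 9 with median or quantile scaling and 8 with normexp. The shares of all genes were then 3.53% with median scaling or normexp and 4.28% with quantile scaling. SCW11, a cell wall glucanase-like gene, had 14.6% and 14.2% at 90 min, against 52.3% and 50.2% at 0 min, and fell 3.56-fold. DSE4 and DSE2, of daughter cell separation, fell 3.32-fold and 2.99-fold, and the chitinase gene CTS1 fell 2.78-fold. RME1, a repressor of meiotic entry, was the 1 gene of this list called higher, at 0.69 ± 0.05, and was at 0.24 with spike-in scaling, where it did not pass (adjusted p = 0.16).

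The anaphase-promoting complex, which Cdc20 activates, did not share the fall. Of 15 genes for its subunits and regulators, 3 were called lower, 5 higher and 7 did not pass, with a median of 0.09. ACM1, an inhibitor of the other activator Cdh1, changed by -0.86 ± 0.10, and the subunit genes CDC16 and SWM1 by -0.29 each. The subunit genes CDC27 (0.51 ± 0.07), CDC26 (0.39 ± 0.08) and APC1 (0.33 ± 0.06) were called higher, and with spike-in scaling were at 0.06, -0.06 and -0.13 without passing. Without replicate 1 at 90 min, 3 were called higher in place of 5. Under no scaling 6 were lower and 1 higher, at a median of -0.10, beside -0.32 over all genes. Under spike-in scaling 8 were lower, at a median of -0.36, beside -0.58 over all genes.

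Among 12 genes of anaphase and mitotic exit, 9 were lower and 2 higher, with a median of -0.38. AMN1, an antagonist of the mitotic exit network, fell by 1.30 ± 0.07, the phosphatase gene CDC14 by 0.66 ± 0.06 and PDS1, the securin that Cdc20 targets, by 0.60 ± 0.06. CDC15, a kinase of the network, rose by 0.78 ± 0.06, and by 0.33 with spike-in scaling, where it did not pass (adjusted p = 0.0507). NET1, the nucleolar anchor of Cdc14, was at 0.17 ± 0.06, a call lost when any 1 of the 4 arrays was left out. Spindle checkpoint genes, which hold Cdc20 in check, were lower in 5 of 6 cases, with a median of -0.25. MAD2 fell by 0.54 ± 0.06, MPS1 by 0.45 ± 0.06 and BUB1 by 0.26 ± 0.05, and BUB3 was at 0.69 ± 0.07, or 0.24 with spike-in scaling (adjusted p = 0.155). The count of 5 lower was 3 without replicate 1 at 0 min.

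**Figure D4:**
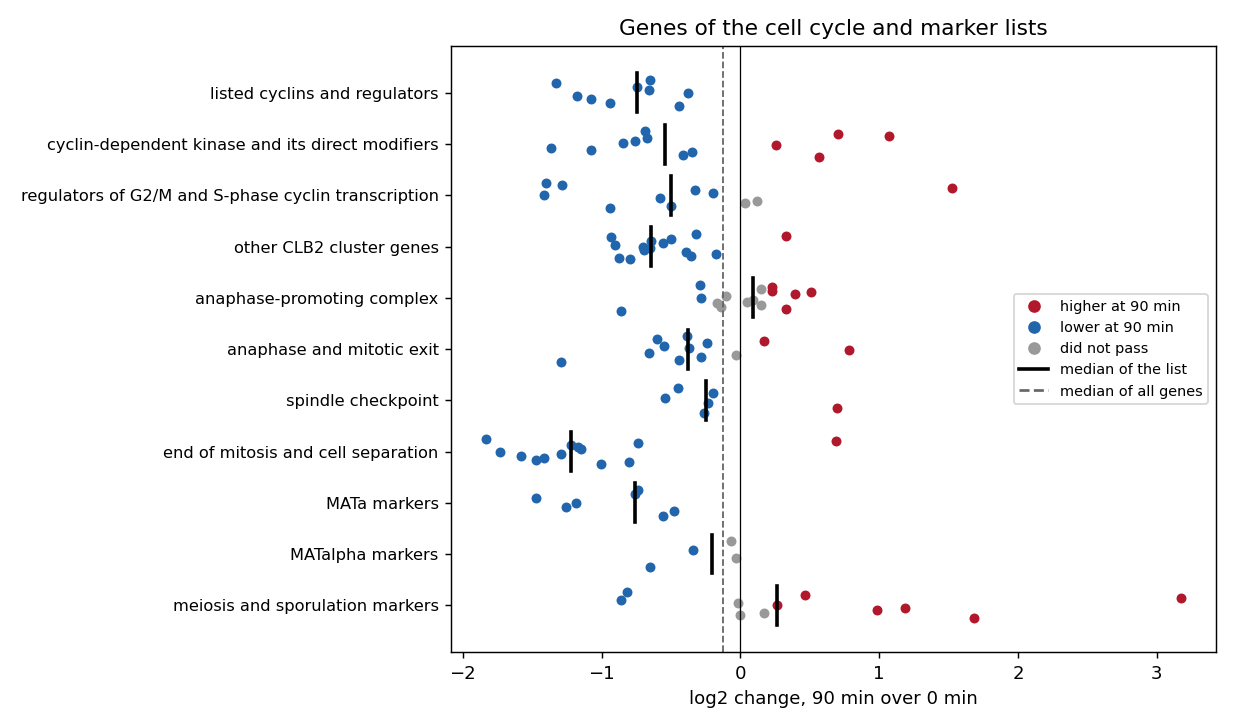
Log2 change (90 min over 0 min) of single genes in the 9 listed cyclins and regulators and in 10 lists, with red for called higher, blue for called lower (limma, adjusted p under 0.05) and grey for not passed. Black bars are list medians, from -1.22 for the end of mitosis and cell separation to 0.26 for meiosis and sporulation markers, and the dashed line is the median of all genes, -0.13; vertical scatter within a row has no meaning.

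Genes that mark cell types were measured beside these changes. BY4741 is a MATa strain, and all 7 MATa markers were well above background on all 4 arrays. All 7 were lower at 90 min, with a summed signal of 232% to 243% at 90 min, against 455% to 471% at 0 min. Sums of this kind add levels of different probes, so bright genes weigh most, and they are read between arrays only. MFA2 and MFA1, the a-factor genes, fell by 1.48 and 1.19, the protease gene BAR1 by 1.26 and the receptor gene STE2 by 0.76. The 4 MATalpha markers were also flagged well above background on all arrays, where 1 flagged spot of the 2 was enough. Their summed signal was 11.5% at 90 min on both arrays, against 14.0% to 15.0% at 0 min. MF(ALPHA)2 was dim, at 0.22% on both 90 min arrays, and its change of -0.03 became 0.08 with normexp. Of the 4, MF(ALPHA)1 fell by 0.65 and SAG1 by 0.34, and 2 did not pass. With no scaling or spike-in scaling all 4 were called lower, as were 3532 and 4090 of all 6144 genes. With normexp MF(ALPHA)1 and SAG1 were at -0.35 and -0.30.

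Several B-type cyclins and a relative of Cdc20 also serve in meiosis, so markers of meiosis and sporulation were read as well. Their summed signal was 43.9% to 47.8% at 90 min, against 26.9% to 27.3% at 0 min. Of 11, 6 were called higher and 2 lower, with a median of 0.26. With spike-in scaling 4 were higher and 4 lower, with a median of -0.19, beside -0.58 over all genes. SPO13, a meiosis I regulator, rose 9.02-fold, and IME1, the inducer of meiosis, 2.28-fold. AMA1, the meiosis-specific relative of CDC20, had 5.16% and 4.49% at 90 min, against 1.59% and 1.42% at 0 min, a rise of 1.68 ± 0.09. HOP1, of the meiotic chromosome axis, rose by 0.98, while SPO11, the nuclease of meiotic recombination, and SPS4 changed by -0.86 and -0.81. With normexp the changes of these dim genes were smaller. On the log2 scale they were 2.74 for SPO13, 0.95 for IME1, 1.34 for AMA1, 0.80 for HOP1, -0.57 for SPO11 and -0.39 for SPS4. NDT80, the activator of middle meiosis that turns on B-type cyclin genes there, changed by -0.02 ± 0.09 and did not pass. The part of the marker genes in the changes of the 9 genes was not tested. NDT80 was picked after its values were seen.

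The genes most like CLB2 and CLB6 over the 4 arrays were found by the root mean square difference of log2 levels, each centred on its own mean, among 6091 genes well above background on all arrays. Nearest to CLB2 were AAT1, an aspartate aminotransferase gene (0.018 log2 units), RPF1, of large ribosomal subunit assembly (0.030), and GIC1, a Cdc42 effector (0.035). Nearest to CLB6 were NRM1 (0.058), PRY3 (0.063) and YHP1 (0.066). With 4 arrays in 2 groups, the measure mostly reflects the size of the change and the gap between replicates.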

How the data were processed

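The deposited scanner files hold spot intensity from Agilent Feature Extraction 10.7.3.1, per the file headers, and the processed intensity is background-subtracted and detrended. The deposited value table holds log2 values. Limma is named for it, without version or steps, in the submitters' processing notes. Its scale correlated at r = 0.993 or higher with log2 processed intensity over 6256 probes per array, and it served as an alternative. Per the file headers, 1 slide held all 4 arrays and they share a scan time.

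The 75th percentile of an array's yeast spots was subtracted from its processed intensity on the log2 scale. Duplicate spots were averaged, leaving out 3 to 10 outlier spots per array. Probes with a spot well above background on both arrays of a group were tested (6175 of 6256). The brightest probe stood for a gene, which gave 6144 genes. Probe names came from the RefSeq R64 table by locus tag or accession. The array design is built on sacCer2, so no positions are given.

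The test was limma's (version 3.58.1, R 4.3.3), with lmFit and eBayes, two-sided and without a block. Its p-values were adjusted over all probes tested by Benjamini-Hochberg, and a gene was called at adjusted p under 0.05. The series names biological replicates without saying what separates them, so p-values rest on the spread between these samples. Limma draws the variance of each gene toward a value shared over genes. That shared value weighed more (4.46 degrees of freedom) than the spread of the gene itself (2). Estradiol was added at an optical density of 0.5 by one protocol and about 1 by another. The 9 genes and the lists were chosen with earlier results of these data known. Named genes were the 9, up to 4 called genes of each list with the largest absolute change, and up to 3 called against the majority of a list. Genes picked otherwise are marked in the text. One further gene is not reported here.

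For this comparison the fit was tested on simulated data of 6144 genes. It recovered 4 of 50 genes at a log2 change of 0.25, 41 of 50 at 0.5 and 50 of 50 at 1 and at 2. It called 8 of 5944 unchanged genes. The data differ from this setting, with 2840 genes called lower and 1860 higher. The adjusted p cut-off therefore differs, and the recovered shares do not carry over to the data. Figures were drawn with matplotlib 3.10.9.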

Additional observations from a re-analysis of the deposited data

How the results depend on the processing

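All 9 genes stayed lower and past the threshold (limma, adjusted p under 0.05) in all 16 other settings: median, quantile, no or spike-in scaling, normexp, the deposited value table, 2 other filters, a replicate block, each array left out, a trended or robust prior and the mean of a gene's probes. Their highest adjusted p was 0.0151, for CLB3 without replicate 2 at 0 min. The 2 filters, the block, the trended and robust priors and the probe mean left the log2 changes of the 9 as in the main setting. Those settings altered only the SE and adjusted p, so they say nothing further on the size of the falls. Thresholds of 0.01 and 0.1 also kept all 9. Requiring a 2-fold change as well left 3 of the 9 lower, 238 genes lower and 548 higher among all genes, and 24 list genes. With spike-in scaling 745 genes were called higher in place of 1860. No scaling and spike-in scaling moved the share of calls that were higher, 39.6% in the main setting, to 26.7% and 15.4%. When single arrays were left out, 2484 to 2671 genes were lower and 1699 to 1785 higher, and in those fits the lone array of a group is assumed to vary like the other group. With the replicate number as a block, 2974 genes were lower and 1952 higher, and all 9 genes kept their call. Deviations of replicate 1 correlated at r = 0.20 between the groups over genes. The numbers are not known to pair the samples. Depth is limited by signal: CLB6, the dimmest of the 9, moved most with the background correction.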
